A study of Mus musculus with 2 samples.

Results

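The regulatory T cells (Tregs) described here carried at least 1 transcript of Il1rl1 and lay outside the suppressive, interferon and proliferating groups of islet Tregs. They numbered 87 of 2915 Tregs, among 5629 cells in all, with 35 in the wild-type library and 52 in the knockout library. Il1rl1 encodes ST2, the receptor for the alarmin IL-33, which damaged cells release. Tregs that carry ST2 are known from muscle, fat, skin, lung and gut, where they depend on the transcription factor GATA3, which binds and drives Il1rl1 itself. They are known for making amphiregulin, a growth factor that acts on epithelial and other tissue cells during repair, and for a set of receptors that hold them in tissue.

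The wild-type library came from NOD.Foxp3-EGFP animals. The knockout library came from NOD.Tnfrsf9-/-.Foxp3-EGFP animals, in which every cell lacks a functional Tnfrsf9, the gene of the costimulatory receptor CD137. Both strains are on the autoimmune diabetes-prone NOD background and carry the Foxp3-EGFP reporter, which makes Foxp3-expressing cells green. Each library was a pool of hand-picked, collagenase-digested islets from 6 prediabetic females of 9 to 10 wk, so animals cannot be told apart and the 2 libraries are the only samples. CD8 T cells and GFP+ CD4+ Tregs were sorted from the islets and loaded together on a 10x Chromium 3′ chip, so the proportion of Tregs in a library is set by the sort.

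The cells were selected on measured values, in 2 steps. A Treg had no Cd8a or Cd8b1 UMI (unique molecular identifier, 1 captured transcript), at least 1 UMI of Cd4, Foxp3, Il2ra or Ikzf2, and at least 3 of Cd3d, Cd3e and Cd3g together. Of these, cells with at least 1 Il1rl1 UMI were kept when Isg15, Ifit1 and Ifit3 together stayed below 2 UMIs, Lag3, Itgae, Il10 and Cxcr6 below 3, and Mki67, Top2a, Birc5, Ube2c and Cdk1 below 3. All differences between these cells and other Tregs below are therefore descriptions with no test. With 1 library per genotype the comparison of genotypes has no replicate either, and no p-value is given. Intervals are at the 95% level and describe counting error alone, since variation from mouse to mouse cannot be seen in pools.

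The wild-type library held 19904506 UMIs in 2804 barcodes and the knockout library 19639995 in 2991. Filters of 200 to 5000 genes and at most 20% mitochondrial UMIs left 2714 and 2915 cells, with median depths of 5011 and 4903 UMIs. The libraries shared 16 barcodes, of which 1 belonged to an Il1rl1-positive cell of the knockout. No doublets were removed, and of the Il1rl1-positive cells 2 knockout and no wild-type cells held more than 10000 UMIs.

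Sequence upstream of Il1rl1 is shown because GATA3 is a known regulator of this gene and Gata3 was measured in the same cells. Il1rl1 lies on chromosome 1 at 40429570 to 40465415 on the plus strand (GRCm38), and RefSeq gives it 2 transcription starts. The 250 bases before each start are printed 5′ to 3′, with the capitals marking the core word of GATA factors on either strand, which is GATA with an A or T before it and an A or G after it.
Il1rl1 upstream start, chr1:40429320-40429569: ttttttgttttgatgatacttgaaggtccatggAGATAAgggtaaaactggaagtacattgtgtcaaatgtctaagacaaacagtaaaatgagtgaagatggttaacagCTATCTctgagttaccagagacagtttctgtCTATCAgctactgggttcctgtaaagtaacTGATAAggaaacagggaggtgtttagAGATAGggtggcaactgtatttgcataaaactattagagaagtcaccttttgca
Il1rl1 downstream start, chr1:40439379-40439628: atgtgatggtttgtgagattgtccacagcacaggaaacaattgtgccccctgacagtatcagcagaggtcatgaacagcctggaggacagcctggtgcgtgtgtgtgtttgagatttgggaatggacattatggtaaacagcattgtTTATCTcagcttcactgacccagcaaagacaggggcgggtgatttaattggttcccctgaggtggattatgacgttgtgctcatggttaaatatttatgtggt

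The window at the upstream start held 5 of these words, at 211, 135, 104, 74 and 48 bases before the start, and none of them overlapped. The window at the downstream start held 1, at 97 bases. Over all 32851 RefSeq windows of 250 bases, 26.5% held at least 1 word, 6.40% at least 2, and 14 windows (0.0426%) at least 5. A match is a sequence description and not a binding site, and since 3′ libraries read the end of a transcript they do not show which start was used. Single windows of Gata3, Areg and S100a4 held none of the words.

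Il1rl1 itself was sparse. The wild-type cells held 50 Il1rl1 UMIs, with 1 UMI in 23 cells, 2 in 9 cells and 3 in 3 cells. The knockout cells held 95, with 1 UMI in 26 cells, 2 in 15 cells and 3 to 5 in 11 cells. Most of the cells therefore sat at the threshold of the selection, and a Treg with the same Il1rl1 level can miss it by chance of capture. Among CD8 T cells of the same libraries, which should lack the gene, 0 of 501 wild-type cells had an Il1rl1 UMI, which with 3 counts as the limit of a count of 0 allows a share of up to 0.599%, and 1 of 824 knockout cells did (0.121%), at median depths of 5545 and 5090 UMIs.

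The 3 limits removed about as many Il1rl1-positive Tregs as they kept, 39 wild-type and 52 knockout cells. The suppressive limit removed 31 and 39 of these, the interferon limit 12 and 9, and the proliferation limit 4 and 19, with 8 and 12 cells over more than 1 limit. Cells just inside the suppressive limit, with a sum of 2 UMIs, numbered 1 (wild type) and 13 (knockout), and those just outside it, with a sum of 3, numbered 4 and 8.

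The genes behind the Treg label were captured unequally. Ikzf2, which encodes the Treg transcription factor Helios, was present in all 35 wild-type cells and in 49 of 52 from the knockout. Foxp3, the lineage factor, was captured in 8 and 16 cells, Il2ra, the high-affinity IL-2 receptor chain, in 7 and 24, and Cd4 in 21 and 30. At least 1 of Foxp3, Il2ra and Ikzf2 was found in 35 and 50 cells, and 2 knockout cells entered by Cd4 alone. These 4 genes are part of the selection, so their presence is not a finding.

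The ST2-bearing innate cell types that were checked were absent by their markers, and helper T cells were not covered by that check. Of 12 genes of group 2 innate lymphoid cells, mast cells and basophils, 11 were at 0 in both libraries, among them Il5, Il13, Kit, Cpa3 and Gata2, leaving only Il1rl1. B cell and erythroid genes were at 0. The NK list gave 1 and 2 UMIs, and the gamma delta and innate-like T cell list 0 and 3 UMIs over the 5 of its genes that were measured. The myeloid list gave 15 and 17 UMIs, of which Cd74 made 15 and 15, and the endothelial and stromal list 13 and 26, all of them Pecam1.

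Small amounts of pancreatic RNA were present. Acinar genes made 52.7 UMIs per 1000000 UMIs (CPM) in the wild-type and 91.9 CPM in the knockout Il1rl1-positive cells, from 7 and 22 UMIs, against 33.5 and 59.3 CPM in the other Tregs. Endocrine genes made 22.6 and 45.9 CPM, from 3 and 11 UMIs, against 16.3 and 23.0 CPM. Genes of conventional CD4 T cells made 0 and 18 UMIs, with 11 from Cd40lg, 5 from Tnf and 2 from Ifng, in the knockout library only. These 3 sums were higher in the knockout, and their part in the comparisons of genotypes was not tested.

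**Figure D1:**
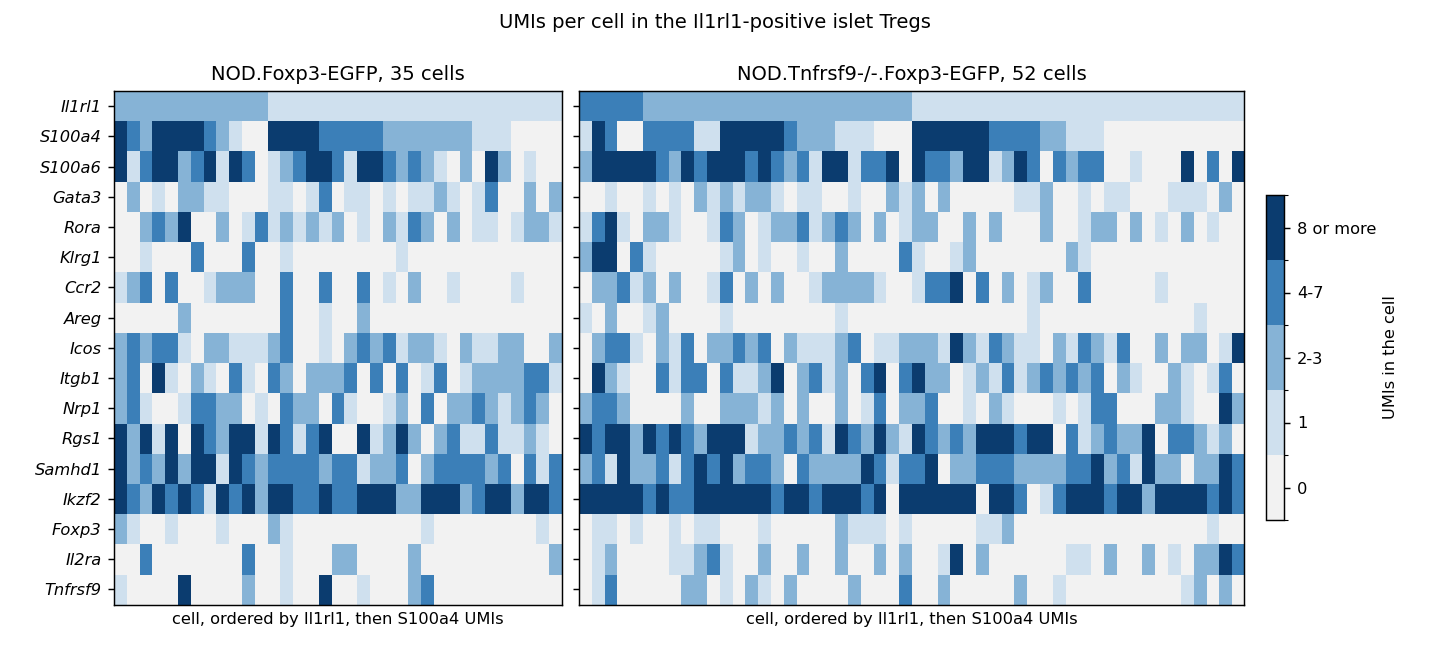
UMIs per cell for 17 genes (rows) in the 35 wild-type and 52 knockout Il1rl1-positive Tregs (columns, ordered by Il1rl1 and then S100a4 UMIs), with the shade giving the number of UMIs in 5 steps. Ikzf2, S100a6 and Rgs1 fill most columns, Gata3 is present in 21 wild-type and 27 knockout cells, and Areg in 4 and 8 cells.

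The share of Tregs in this group was 2.31% (1.62% to 3.2%, Clopper-Pearson) in the wild type and 3.71% (2.78% to 4.84%) in the knockout, a difference of 1.40 percentage points (0.158 to 2.70, Newcombe). The interval of this difference reached 0 after thinning each cell to 2000 UMIs (-0.0496 to 2.43), without cells above 10000 UMIs (-0.00511 to 2.84) and among Tregs with a Foxp3 UMI (-2.50 to 5.68). The limits enter this share, since fewer knockout Tregs were over the suppressive limit (528 of 1401, against 750 of 1514 in the wild type). Among Tregs within the 3 limits the Il1rl1-positive cells made 5.37% (3.77% to 7.39%) and 6.82% (5.14% to 8.85%), a difference of 1.46 points whose interval included 0 (-1.10 to 3.96). All Il1rl1-positive Tregs together, with no limits, made 4.89% of wild-type Tregs and 7.42% of knockout Tregs, a difference of 2.54 points (0.793 to 4.32).

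Beyond the limits, Il1rl1 was carried by 31 of 750 wild-type Tregs (4.13%) and 39 of 528 knockout Tregs (7.39%) over the suppressive limit, a difference of 3.25 points (0.694 to 6.08). Over the proliferation limit it was carried by 2.63% and 11.3%, a difference of 8.68 points (3.10 to 14.6). Over the interferon limit the shares were 7.69% and 8.82%, and the interval of the difference included 0 (-5.55 to 8.94). A Treg over several limits counts under each of them here. Where levels are given below for classes of Tregs, such a cell was placed with the proliferating Tregs first, then with the interferon Tregs, so the suppressive Tregs (572 and 388 cells) are over that limit alone. Whether these differences exceed the spread between mice cannot be known from 1 library per genotype.

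The markers chosen for this group, Gata3, S100a4 and Areg, were then read in the same cells. Gata3, the transcription factor that ST2-bearing Tregs share with type 2 helper cells, was at 263 CPM in the wild-type cells (35 UMIs in 21 cells) and 163 CPM in the knockout cells (39 UMIs in 27 cells). In the other Tregs it was at 94.1 and 94.3 CPM, so the log2 ratio was 1.48 (0.953 to 1.97) in the wild type and 0.79 (0.285 to 1.25) in the knockout. In both libraries the interval lay above 0.

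S100a4, a calcium-binding protein of motile and memory T cells, was at 1241 CPM in wild-type cells and 1140 CPM in knockout cells, against 514 and 557 CPM in the other Tregs. The log2 ratios were 1.27 (1.04 to 1.5) and 1.03 (0.852 to 1.21). It was found in 29 of 35 and 36 of 52 cells. Single knockout cells held 46, 31 and 29 of the 273 S100a4 UMIs, and a counting interval does not cover such clustering.

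Areg, the gene of amphiregulin, did not stand apart from the other Tregs. It gave 9 UMIs in 4 wild-type cells and 11 UMIs in 8 knockout cells, which is 67.7 and 45.9 CPM against 46.0 and 41.1 CPM in the other Tregs. The log2 ratios of 0.56 (-0.582 to 1.5) and 0.16 (-0.858 to 1.02) had intervals that included 0. The suppressive Tregs held it at 71.1 and 51.1 CPM, and the Il1rl1-negative Tregs within the limits at 28.1 and 19.3 CPM. Against these last cells the log2 ratios were 1.27 (0.0877 to 2.27) and 1.25 (0.173 to 2.19), with 1 cell holding 44.4% and 27.3% of these Areg UMIs. Against all other Tregs, Gata3 and S100a4 thus had intervals above 0 in both libraries, and Areg did not. Gata3 was under 2-fold in the knockout. S100a4 was also high in the suppressive Tregs, at 696 and 887 CPM, over which its log2 ratios were 0.84 and 0.36.

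The share of cells with a UMI depends on depth, so each cell was also thinned to 2000 UMIs, which left out 1 wild-type cell. Gata3 was then found in 44.1% (27.2% to 62.1%) of the wild-type and 26.9% (15.6% to 41.0%) of the knockout Il1rl1-positive cells, against 18.2% and 18.0% of the other Tregs and 6.48% and 5.26% of CD8 T cells. Unthinned, the shares were 60.0% and 51.9%, against 36.5% and 34.7%, and 18.2% and 14.1% of CD8 T cells. S100a4 was found after thinning in 79.4% and 57.7%, against 36.7% and 36.3% of the other Tregs. The thinned knockout interval for Gata3 included the share of the other Tregs, and the wild-type interval did not.

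The markers overlapped loosely from cell to cell. All 3 of Gata3, Areg and S100a4 were found together in 4 wild-type and 4 knockout cells, 2 of them in 15 and 19 cells, 1 in 12 and 21 cells, and none in 4 and 8 cells. Rora and Gata3 were found together in 16 of 35 and 17 of 52 cells. Klrg1 and S100a4 were found together in 4 of 5 and 14 of 16 Klrg1-positive cells.

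**Figure D2:**
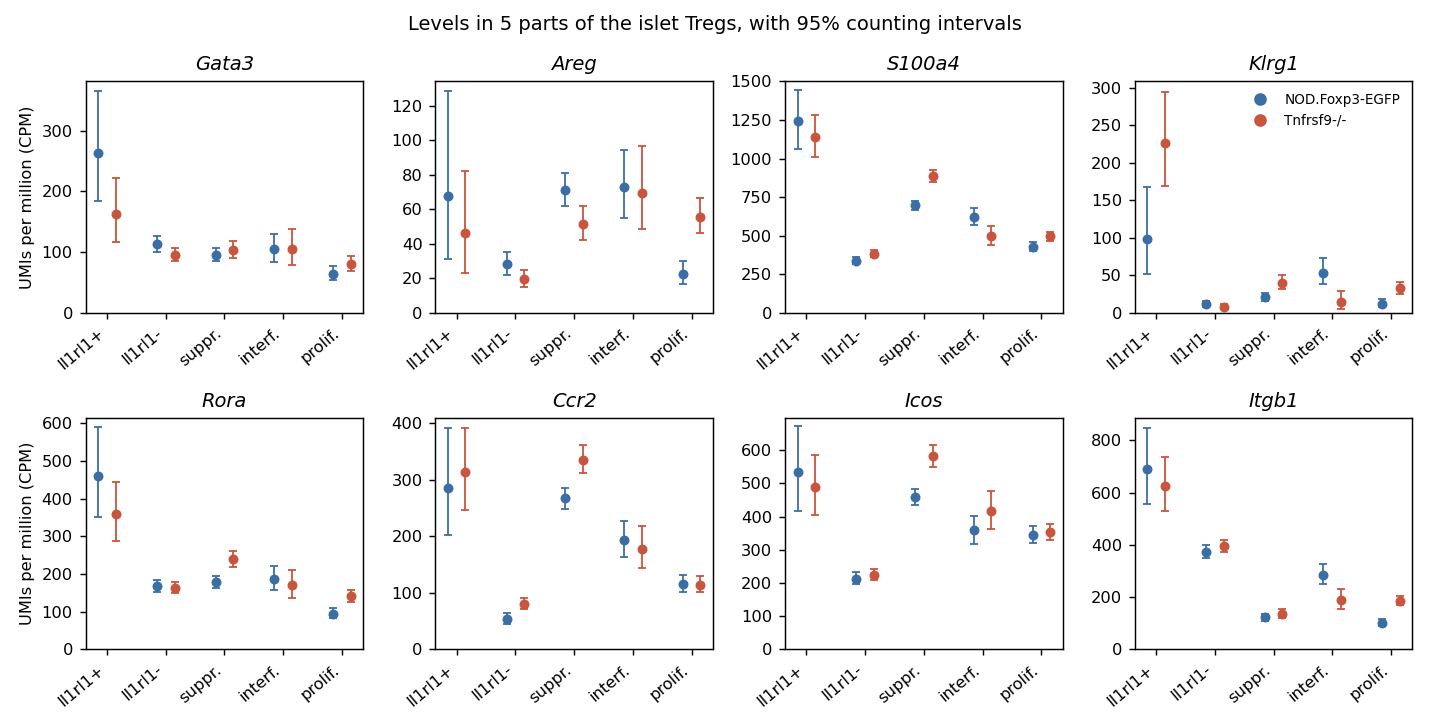
Levels of 8 genes in CPM (vertical axes, each from 0) in 5 groups of Tregs: Il1rl1-positive and Il1rl1-negative Tregs within the limits, and the suppressive, interferon and proliferating classes, with points for the library values and bars for 95% Poisson intervals. Gata3, S100a4, Klrg1, Rora and Itgb1 have their highest points in the Il1rl1-positive group in both libraries, whereas Areg, Ccr2 and Icos reach similar levels in the suppressive group.

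The surface receptor Klrg1, a marker of terminally differentiated tissue Tregs that binds cadherins, was higher in these cells. It was at 97.8 CPM in the wild-type cells (13 UMIs in 5 cells) and 225 CPM in the knockout cells (54 UMIs in 16 cells). The other Tregs held 18.6 and 23.6 CPM and the Il1rl1-negative Tregs within the limits 11.2 and 7.52 CPM. The log2 ratios over the other Tregs were 2.39 (1.45 to 3.21) and 3.25 (2.79 to 3.70). Klrg1 was below the level set for the comparison of all genes, so it is given as a single value. In the wild type 1 cell held 5 of the 13 UMIs (38.5%) and another also held 5, so that ratio rested on few cells. Of CD8 T cells, 2.40% and 0.121% carried a Klrg1 UMI, against 14.3% and 30.8% of the Il1rl1-positive Tregs.

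Other genes of this state were at the edge of capture. Il9r, the interleukin 9 receptor chain, gave 1 UMI in the wild type and 13 UMIs in 9 cells of the knockout, which is 54.3 CPM there against 1.28 CPM in the other knockout Tregs. Pparg, the fat Treg regulator, gave 1 UMI in each library. Ccr8, a chemokine receptor of the ST2 tissue Treg list given further on, was not raised. It was found in 5.71% and 7.69% of the cells, against 7.57% and 9.34% of the other Tregs. Tigit, of the same list, was found in 17.1% and 28.8%, against 25.3% and 24.7%, so its direction differed between the libraries. The type 2 cytokine genes Il5, Il13 and Il9 were at 0 in both libraries and Il4 gave 1 UMI in the wild type. At this depth 3 UMIs correspond to 22.6 CPM in the wild-type and 12.5 CPM in the knockout cells, so lower levels were not detectable.

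For the comparison across genes, a gene was included when its level over all Tregs of both libraries (at least 75.2 CPM) would give 10 UMIs in the smaller set of Il1rl1-positive cells, which 2222 genes did. A gene was called when it differed at least 2-fold, the same way in both libraries. The Il1rl1-positive cells were above the other Tregs in 12 of these genes (0.54%) and below them in 54 (2.43%). The median log2 ratio over all 2222 genes was -0.00 (wild type) and 0.02 (knockout). The higher genes are Itgb1, Nrp1, Rora, Zc3hav1, Rgs1, Samhd1, Slc4a7, S100a4, Sntb1, Gbp3, Irf1 and Zfp36, and all 12 had intervals above 0 in both libraries.

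Itgb1 and Nrp1 were among the higher genes. Itgb1, the integrin beta 1 chain that pairs with several alpha chains to bind collagen, laminin and fibronectin, was at 692 and 626 CPM against 210 and 255 CPM in the other Tregs, log2 ratios of 1.72 (1.40 to 2.02) and 1.30 (1.05 to 1.54). Nrp1, the semaphorin receptor neuropilin 1, was at 482 and 330 CPM against 132 and 158 CPM, log2 ratios of 1.87 (1.48 to 2.23) and 1.06 (0.717 to 1.39). In the suppressive Tregs these genes were at 122 and 137 CPM for Itgb1 and 80.8 and 89.9 CPM for Nrp1.

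Rora and Rgs1 were higher in both libraries as well. Rora, a nuclear receptor that innate lymphoid cells and tissue Tregs use, was at 459 and 359 CPM against 156 and 178 CPM, log2 ratios of 1.56 (1.17 to 1.93) and 1.01 (0.681 to 1.33). Rgs1, which shortens signals of chemokine receptors, was at 1761 and 1474 CPM against 654 and 688 CPM, log2 ratios of 1.43 (1.23 to 1.62) and 1.10 (0.941 to 1.26). Of the 11 higher genes other than Zfp36, 9 had a RefSeq promoter entry, and 1 of these, Rora, held a GATA word in its 250-base window, at 32 bases before its start. Over all RefSeq windows 26.5% held at least 1 such word.

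Zc3hav1, Samhd1, Gbp3 and Irf1 were also called higher, whereas a list of interferon genes given further on had no call. Zc3hav1, a binder of viral RNA, was at 813 and 739 CPM against 287 and 358 CPM. Samhd1, which degrades deoxynucleotides, was at 1256 and 981 CPM against 487 and 461 CPM. Gbp3, an interferon-induced guanylate-binding protein, was at 173 and 192 CPM against 86.2 and 89.8 CPM, and Irf1, a transcription factor of the interferon response, at 414 and 459 CPM against 203 and 224 CPM. Their log2 ratios ran from 1.01 to 1.5 in the wild type and from 1.04 to 1.10 in the knockout. Interferon genes were used to keep cells out, so these values come from cells at the low end of the interferon response by Isg15, Ifit1 and Ifit3.

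The remaining higher genes were Slc4a7, a sodium bicarbonate transporter, with log2 ratios of 1.36 (0.723 to 1.94) and 1.09 (0.669 to 1.48), and Sntb1, a syntrophin of the membrane scaffold, with 1.09 (0.763 to 1.40) and 1.06 (0.832 to 1.27). Zfp36, which destabilizes cytokine messenger RNA, had 1.75 (1.29 to 2.18) and 1.26 (0.869 to 1.62), with 1 cell holding 32.6% of its wild-type UMIs. Most knockout ratios lay close to the 2-fold line. The split of 12 higher and 54 lower genes became 2 and 72 with TMM scaling factors, which moved the median of all genes to -0.17 and -0.10, and 2 and 24 when each cell had equal weight, with Itgb1 and Zfp36 past the line in each case.

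Of the 54 lower genes, 6 were used in the selection, and 34 of the other 48 had their highest level in the proliferating Tregs in both libraries. 2810417H13Rik, which encodes the PCNA clamp-associated factor Pclaf, had 0 UMIs in both libraries, a log2 ratio to the other Tregs of at most -3.03 (wild type) and -4.13 (knockout) with 3 UMIs put in place of 0. Mcm6, a subunit of the replicative helicase, was at 30.1 and 50.1 CPM against 144 and 152 CPM, and Tubb5, a tubulin, at 226 and 146 CPM against 564 and 533 CPM. Ranbp1, a nuclear transport factor, had log2 ratios of -1.98 (-3.19 to -0.995) and -1.79 (-2.57 to -1.10). Of these genes, Dut, which removes dUTP, lost its direction in the wild type when cells above 10000 UMIs were left out, at a log2 ratio of 0.07 in place of -1.18.

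Ccl5, Ccl4 and Nkg7 were lower as well. Ccl5, a chemokine of effector T cells, was at 82.8 and 83.5 CPM against 553 and 272 CPM, log2 ratios of -2.74 (-3.74 to -1.90) and -1.70 (-2.42 to -1.07). Ccl4, another such chemokine, gave 0 UMIs in wild-type against 6 in knockout cells, where the other Tregs held 284 and 229 CPM. Nkg7, a cytotoxic granule protein, was at 45.1 and 71.0 CPM against 503 and 373 CPM. All 3 were highest among the suppressive Tregs, which the limits kept out, at 992 and 508 CPM for Ccl5, 692 and 476 CPM for Ccl4 and 850 and 797 CPM for Nkg7.

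**Figure D3:**
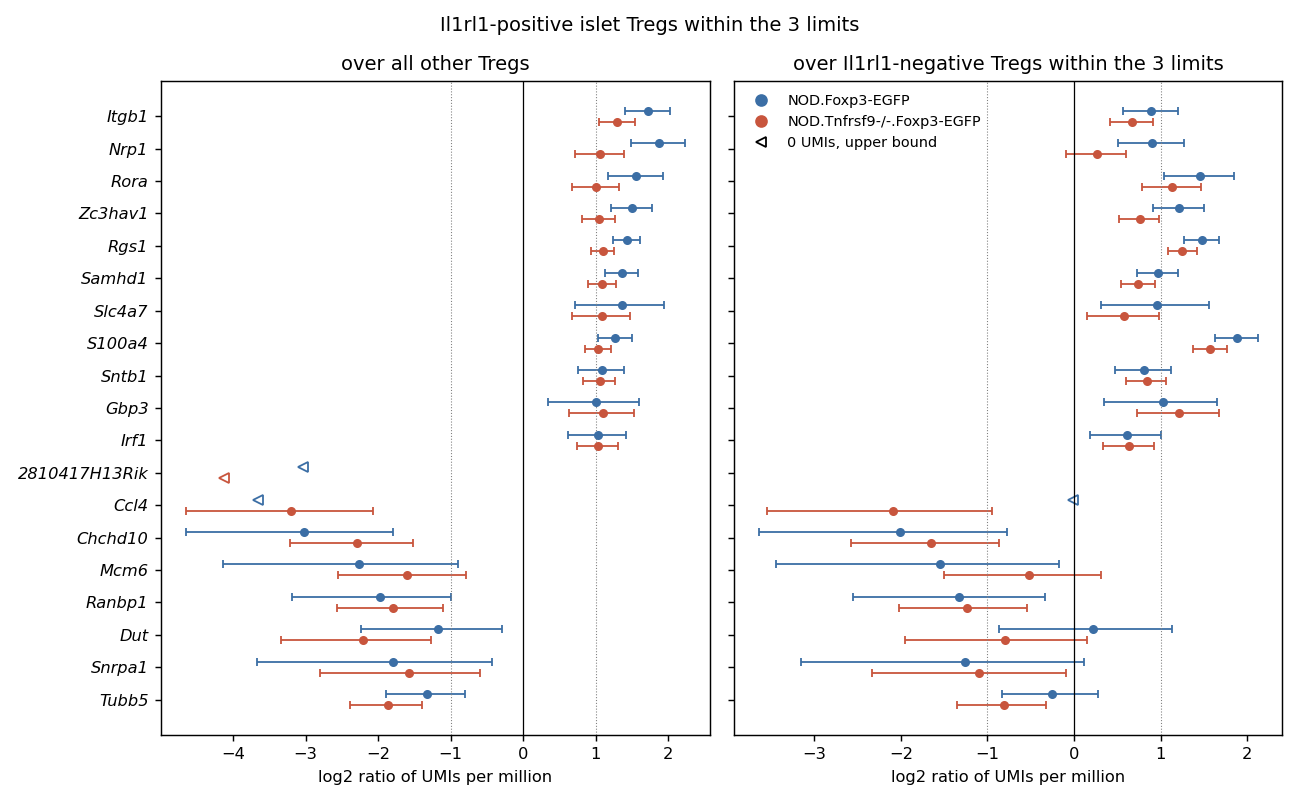
Log2 ratios of CPM in the Il1rl1-positive Tregs over all other Tregs (left) and over Il1rl1-negative Tregs within the same limits (right) for the 11 higher and 8 lower genes named by the rule, with points per library, bars for exact 95% intervals and open triangles for upper bounds at 0 UMIs. S100a4 and Rgs1 lie further right in the right panel, whereas Itgb1 and Nrp1 move toward 0 there.

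The other Tregs mix several states, so the Il1rl1-positive cells were also set against the 617 wild-type and 710 knockout Tregs that met the same 3 limits and had no Il1rl1 UMI. These comparisons share the Il1rl1-positive cells. Median depths were close, 3491 and 3958.5 UMIs in the Il1rl1-positive and 3506 and 3542 UMIs in the Il1rl1-negative cells. Of 2222 genes, 18 (0.81%) were at least 2-fold higher and 19 (0.855%) at least 2-fold lower in both libraries, and 1 of the higher genes, Birc5, was used in the selection.

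The higher genes against these cells included Ccr2, S100a4 and S100a6. Ccr2, the receptor for the monocyte chemoattractant CCL2, was at 286 and 313 CPM against 54.2 and 80.5 CPM, log2 ratios of 2.40 (1.84 to 2.92) and 1.96 (1.57 to 2.34). S100a4 was at 338 and 384 CPM in the Il1rl1-negative cells, log2 ratios of 1.88 (1.63 to 2.12) and 1.57 (1.37 to 1.76). S100a6, its neighbour on chromosome 3, was at 2069 and 1708 CPM against 638 and 680 CPM, log2 ratios of 1.70 (1.51 to 1.88) and 1.33 (1.17 to 1.48). Single wild-type cells held 47, 45 and 37 of the S100a6 UMIs, and a counting interval does not cover such clustering.

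Icos, a costimulatory receptor of activated Tregs, was at 534 and 489 CPM against 214 and 225 CPM. Rgs1 and Rora were also past 2-fold here, with log2 ratios of 1.48 and 1.25 for Rgs1 and 1.45 and 1.13 for Rora. Gzmb, the gene of granzyme B, had log2 ratios of 3.75 and 2.06, above those of the genes just named, but 1 cell held 43.8% of its wild-type and 27.8% of its knockout UMIs. The remaining higher genes were Neb, Ptprj, Serinc3, Ctsa, Tmem154, Gbp3, Cmtm7, Glrx, 4930453N24Rik and Lmnb1.

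Itgb1 and Nrp1, at least 2-fold above all other Tregs, were nearer to the Il1rl1-negative cells. Itgb1 was at 374 and 395 CPM there, log2 ratios of 0.89 (0.564 to 1.20) and 0.67 (0.411 to 0.912). Nrp1 was at 258 and 275 CPM, log2 ratios of 0.90 (0.507 to 1.27) and 0.26 (-0.0914 to 0.594), with the knockout interval including 0. Ccr2 and Icos showed the opposite order, with levels in the suppressive Tregs (267 and 336 CPM for Ccr2, 459 and 582 CPM for Icos) close to or above those of the Il1rl1-positive cells. Of the 12 genes above all other Tregs, 4 were also at least 2-fold above the Il1rl1-negative cells in both libraries, Rgs1, S100a4, Gbp3 and Rora. Against the Il1rl1-negative cells the log2 ratios were 1.22 and 0.76 for Zc3hav1, 0.96 and 0.74 for Samhd1 and 0.61 and 0.63 for Irf1. They were 0.96 and 0.58 for Slc4a7 and 0.80 and 0.84 for Sntb1.

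The genes lower than in the Il1rl1-negative cells included Bach2, Bcl2, Aff3 and Tbc1d4. Bach2, a repressor that keeps T cells and resting Tregs undifferentiated, was at 82.8 and 87.7 CPM against 279 and 369 CPM, log2 ratios of -1.75 (-2.76 to -0.906) and -2.07 (-2.77 to -1.45). Bcl2, a survival factor, was at 60.2 and 58.5 CPM against 190 and 235 CPM, log2 ratios of -1.66 and -2.0. Aff3, a nuclear elongation factor, had log2 ratios of -1.15 (-1.78 to -0.579) and -2.92 (-3.73 to -2.22), and Tbc1d4, a GTPase-activating protein of glucose uptake, -1.43 and -1.54. Ccl5, Itgb8, Chchd10 and Tuba1b were lower here too, with log2 ratios from -2.01 to -1.05 over both libraries.

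Levels are also described by the number of Il1rl1 UMIs among Tregs within the limits, for 0, 1, 2 and 3 or more UMIs. The bins held 617, 23, 9 and 3 wild-type cells and 710, 26, 15 and 11 knockout cells, so the upper bins are thin. Their median depths were 3506, 3357, 4394 and 3802 UMIs in the wild type and 3542, 3611, 4442 and 5155 UMIs in the knockout. The bins thus differ in depth as well, and its part in the orders below was not tested. S100a6 went from 638 to 1308, 2970 and 3879 CPM in the wild type and from 680 to 1131, 1710 and 2665 CPM in the knockout. Ccr2 went from 54.2 to 214, 327 and 586 CPM in wild-type cells, and in knockout cells from 80.5 to 322, 336 and 276 CPM. In the last wild-type bin 1 of the 3 cells held 47 of the 53 S100a6 UMIs, and the other 2 cells stood at 938 CPM, under the bin of 1 Il1rl1 UMI. In the wild-type bin of 2 Il1rl1 UMIs 1 cell held 45 and another 37 of the 118 S100a6 UMIs. The wild-type order of S100a6 thus rested on few cells. In the knockout the last bin without its highest cell was at 2318 CPM, so S100a6 kept its order there. Ccr2 was ordered in the wild type, on 8 UMIs in the last bin, and not in the knockout.

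Klrg1 was ordered in the knockout, at 7.52, 73.6, 214 and 490 CPM, and reached 11.2, 25.2, 252 and 73.2 CPM in the wild type, where the last bin held 1 UMI. In the last knockout bin 1 cell held 15 and another 10 of the 32 Klrg1 UMIs, so this order rested on few cells. Gata3 was highest in the wild-type bin of 1 Il1rl1 UMI, at 113, 314, 201 and 146 CPM, and in the knockout stood at 95.2, 175, 214 and 91.9 CPM. It thus did not follow Il1rl1 UMIs within the positive cells. S100a4 was ordered in the wild type, at 338, 1132, 1334 and 1610 CPM, and not in the knockout, at 384, 975.1, 1878 and 674 CPM. In the knockout bin at 1878 CPM, 1 cell held 46 and another 29 of the 123 UMIs.

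Gene lists for the pathways of these cells gave few calls, since many of their genes were too sparse. Of 27 ST2 tissue Treg genes 6 were included, of which 1 was called higher (Rora) and 1 lower (Penk) than in the other Tregs, with median log2 ratios of 0.47 (wild type) and 0.61 (knockout), where the medians over all genes were -0.00 and 0.02. Penk, the enkephalin precursor, gave 1 and 6 UMIs, which is 7.52 and 25.1 CPM against 93.4 and 64.3 CPM. Batf, a basic leucine zipper factor needed by tissue Tregs, was at 369 and 359 CPM against 369 and 266 CPM. Against the Il1rl1-negative cells 3 of the 6 were called higher, Rora, Ccr2 and Neb, with medians of 1.28 and 0.95 beside 0.08 and 0.06 over all genes.

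Of 20 genes of the IL-33 receptor and its signaling, 7 were included and 0 were called, with medians of 0.60 and 0.81. Il1rap, the shared chain of the IL-33 receptor, gave 2 and 5 UMIs, and Myd88, its adaptor, 4 and 5 UMIs. Of the 7, 4 were above 0 in both libraries, with log2 ratios of 1.44 and 0.95 for Nfkbiz, 0.99 and 1.10 for Dusp1, 0.61 and 0.83 for Nfkbia and 0.60 and 0.81 for Tnfaip3, and intervals above 0. Nfkb1 was at 211 and 418 CPM against 265 and 270 CPM, so its direction differed between the libraries. Relb was at 105 and 96.0 CPM against 113 and 87.3 CPM, and Sigirr at 90.3 and 62.6 CPM against 89.9 and 64.5 CPM. Dusp1 also stands in the list of dissociation stress genes. Il18r1, which lies next to Il1rl1 at 40465552 to 40500854 and encodes the IL-18 receptor, was at 466 and 271 CPM against 175 and 168 CPM, log2 ratios of 1.42 (1.02 to 1.78) and 0.69 (0.307 to 1.05). Against the Il1rl1-negative cells the medians of the IL-33 list were 0.23 and 0.43, beside 0.08 and 0.06 over all genes.

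The S100, annexin and galectin list had 15 of 18 genes included and 2 called higher, S100a4 and Itgb1, with medians of 0.48 and 0.53 and 10 of 15 genes above 0 in both libraries. S100a10 had log2 ratios of 0.65 (0.475 to 0.825) and 0.57 (0.429 to 0.709), and S100a11 of 0.86 (0.277 to 1.39) and 1.36 (0.962 to 1.74). Lgals1, the gene of galectin 1, was at 1174 and 1219 CPM against 1506 and 1513 CPM in the other Tregs, and against 684 and 707 CPM in the Il1rl1-negative cells. Its direction therefore depended on the cells compared.

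Chemokine and homing receptors had 10 of 23 genes included and 1 called higher, Itgb1, with 9 of 10 above 0 in both libraries and medians of 0.81 and 0.65. Itgb7, the integrin chain of gut homing, had log2 ratios of 0.94 (0.643 to 1.23) and 0.75 (0.513 to 0.975), Selplg, the selectin ligand PSGL-1, of 0.93 and 0.73, and S1pr4, a sphingosine phosphate receptor, of 1.18 and 0.54. Itgal, the LFA-1 alpha chain, was the gene below 0, at -1.02 (-2.24 to -0.0404) and -0.18 (-0.819 to 0.387). Cxcr3 was at 301 and 196 CPM against 178 and 145 CPM.

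The naive and recirculation list had 4 of 13 genes included and 0 called, with medians of -0.09 and -0.59. Satb1, a chromatin organizer, had log2 ratios of -1.15 (-1.96 to -0.446) and -0.94 (-1.52 to -0.409), and Lef1, a factor of naive T cells, of 0.88 (0.351 to 1.36) and -0.06 (-0.532 to 0.367). Il7r, the IL-7 receptor, which was under the inclusion level, was at 128 and 196 CPM against 41.1 and 47.5 CPM, log2 ratios of 1.64 (0.843 to 2.34) and 2.05 (1.58 to 2.49).

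Of 20 suppressive Treg genes, 4 were used in the selection and 7 others were included with 0 called, at medians of 0.31 and -0.15. Icos had log2 ratios of 0.63 and 0.41, Ctla4, the inhibitory receptor, of 0.00 (-0.202 to 0.199) and 0.41 (0.273 to 0.549), and Tgfb1, a suppressive cytokine, of -0.92 (-1.70 to -0.237) and -0.45 (-0.964 to 0.0301). Treg identity genes had 9 included, with Nrp1 called higher and Itgb8 lower, at medians of -0.25 and 0.07. Itgb8, an integrin chain that activates latent TGF-beta, gave 2 and 8 UMIs, which is 15 and 33.4 CPM against 102 and 116 CPM.

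The TNF receptor family had 8 of 16 genes included and 0 called, at medians of -0.14 and 0.09. Tnfrsf18, which encodes GITR, was at 767 and 534 CPM against 566 and 498 CPM, and Tnfrsf4, which encodes OX40, at 1068 and 923 CPM against 1324 and 985 CPM. Tnfrsf1b, the TNF receptor 2, was at 166 and 242 CPM against 283 and 237 CPM. None of these 3 had an interval on the same side of 0 in both libraries.

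Th1 and Th17 genes had 4 included, with Nkg7 and Ccl5 called lower and Cxcr3 and Il18r1 on the higher side, at medians of -0.99 and -0.63. The type 2 list had 2 included, Maf and Crlf2, and 0 called, at medians of 0.16 and 0.27. Il4ra, the IL-4 receptor chain, which was under the inclusion level, was at 256 CPM in the wild-type cells and 71.0 CPM in the knockout cells, against 70.4 and 76.5 CPM. The 2 libraries thus differed for this receptor inside the Il1rl1-positive cells, with a log2 ratio of the knockout over the wild type of -1.85 (-2.78 to -0.969), against 0.12 in the other Tregs.

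TCR-induced genes had 5 included, with Cd200 called lower, at medians of -0.31 and -0.09. The basic leucine zipper and AP-1 list had 8 included and 0 called, at medians of 0.18 and 0.42, with Jun at log2 ratios of 1.01 and 0.66, Junb at 0.88 and 0.64 and Fos at 0.72 and 0.52. The follicular Treg and recent activation list had 8 included, with Cd200 lower, at medians of -0.31 and -0.22. Lipid genes had 2 included, with Fabp5, a fatty acid carrier, called lower from 4 and 4 UMIs.

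Interferon genes outside the selection had 7 included and 0 called, at medians of 0.53 and 0.50, and 0.46 and 0.33 against the Il1rl1-negative cells. Of these 7, 5 were above 0 and 0 below it in both libraries. Proliferation genes outside the selection had 9 included and 5 called lower (Mcm6, Stmn1, Rrm2, Tuba1b and Tubb5), at medians of -1.48 and -1.60, and -0.46 and -0.20 against the Il1rl1-negative cells. The selection removed cells high in these 2 programs, so the lower proliferation values against all other Tregs were not free to vary. The interferon list lay on the higher side, and the cause was not tested. Dissociation stress genes, which Jun, Fos and Dusp1 belong to as well, had 9 included and 0 called, at medians of 0.36 and 0.06.

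**Figure D4:**
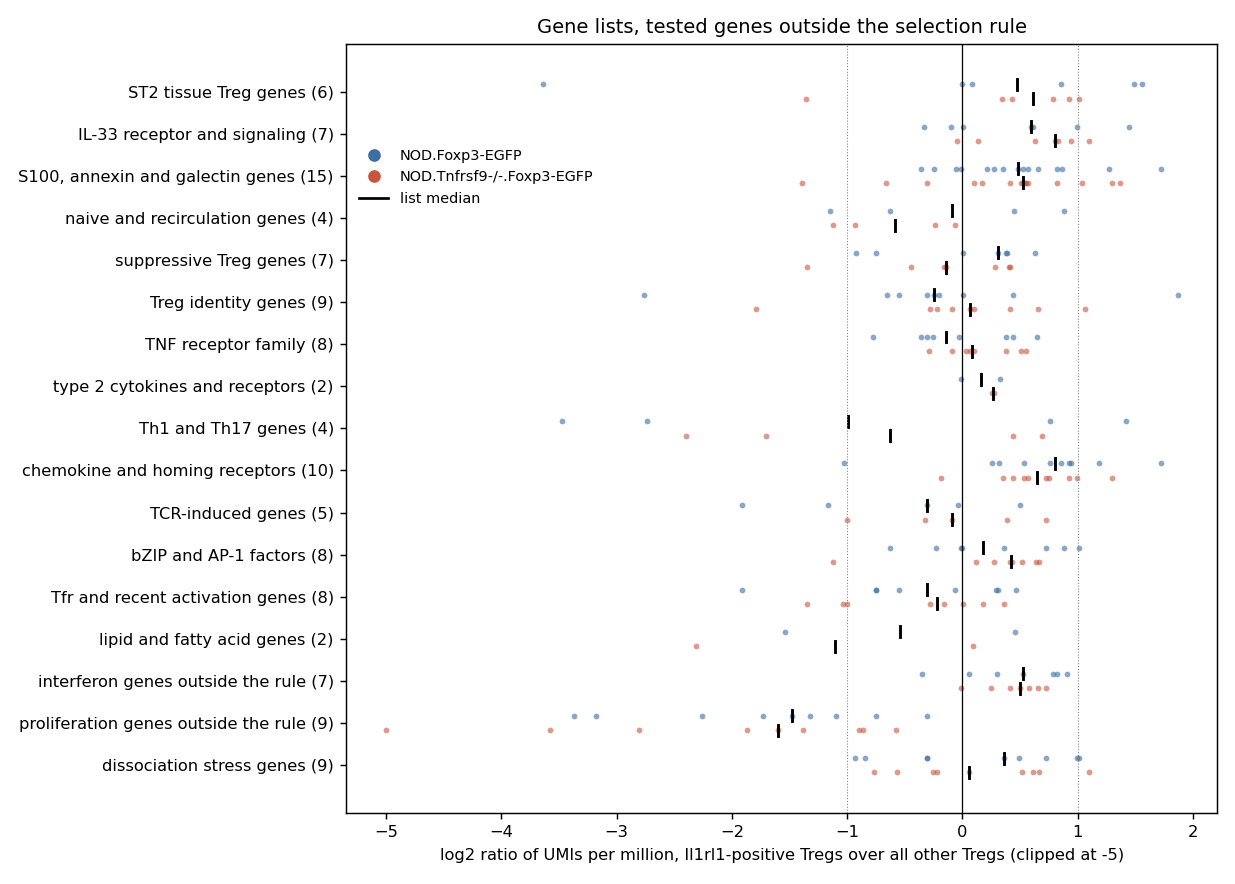
Log2 ratios of CPM in the Il1rl1-positive Tregs over all other Tregs (horizontal axis) for the included genes of 17 lists (rows, number of genes in brackets), with points per gene and library and black bars for list medians. The chemokine and homing, S100, IL-33 signaling and interferon medians lie between 0.48 and 0.81 in both libraries, and the proliferation medians at -1.48 and -1.60.

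The knockout was then compared with the wild type inside the Il1rl1-positive cells. Tnfrsf9, the deleted gene, was at 331 CPM in the wild type (44 UMIs in 8 of 35 cells, 38.6% of them in 1 cell) and 142 CPM in the knockout (34 UMIs in 16 of 52 cells), a log2 ratio of -1.22 (-1.91 to -0.543). In the other Tregs it was at 338 and 109 CPM, a log2 ratio of -1.63. Inside the Il1rl1-positive cells this rested on few cells. In the wild type 2 cells held 17 and 15 of the 44 UMIs, and the other 33 cells stood at 97.3 CPM (50.3 to 170). The knockout without its 2 highest cells stood at 117 CPM (76.2 to 171), so these intervals overlapped. The share of cells with a UMI was 22.9% and 30.8%, and 23.5% and 21.2% after thinning. With a Foxp3 UMI required the log2 ratio was 0.0029. In the other Tregs 51.4% and 30.1% of cells had a UMI, so both the level and the share went with the labels there, whereas in the Il1rl1-positive cells the unthinned share did not. The 3′ counts do not show which exons the remaining knockout transcripts held. Gata3 and Tnfrsf9 were found together in 6 wild-type and 12 knockout cells.

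Of 2222 genes, 95 (4.28%) were at least 2-fold higher and 57 (2.57%) at least 2-fold lower in the knockout, at a median log2 ratio of 0.03. The intervals excluded 0 for 50 of the 95 and 34 of the 57. In the other Tregs, which gave far more UMIs (8691997 and 7826201, against 132915 and 239477), 2 genes (0.09%) were 2-fold higher, Mki67 and Prpf4b, and 4 (0.18%) 2-fold lower, Tnfrsf9, Ccl5, Serpina3g and Ly6a. The higher share inside the Il1rl1-positive cells goes with the smaller number of UMIs, 1 of which was worth 7.52 CPM in the wild type and 4.18 CPM in the knockout.

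Of the markers of this state, Klrg1 differed between the genotypes beyond counting error, and the intervals of Gata3, Areg, S100a4 and Rora included 0. The log2 ratio of the knockout over the wild type was -0.69 (-1.39 to 0.00785) for Gata3, -0.56 (-1.97 to 0.889) for Areg, -0.12 (-0.407 to 0.165) for S100a4 and -0.35 (-0.844 to 0.144) for Rora. Klrg1 was higher in the knockout at 1.21 (0.312 to 2.20), in 16 of 52 against 5 of 35 cells, and in the other Tregs its ratio was 0.34. In the knockout 1 cell held 27.8% of the Klrg1 UMIs, and a counting interval does not cover such clustering.

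The genes highest in the knockout rested on few wild-type UMIs. Hsd17b10, a mitochondrial dehydrogenase, gave 18 UMIs in knockout against 2 in wild-type cells, a log2 ratio of 2.32 (0.258 to 5.47), and Hivep3, a zinc finger protein, 3 and 22, a ratio of 2.03 (0.290 to 4.41). Smarca5, a chromatin remodeler, gave 4 and 28 UMIs and a ratio of 1.96 (0.443 to 3.93), where the other Tregs had 0.65. Ddx3x, an RNA helicase, and Smc1a, a cohesin subunit, each gave 5 and 31 UMIs and a ratio of 1.78 (0.408 to 3.5), with 0.24 and 0.54 in the other Tregs.

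Dennd1a, an exchange factor of vesicle traffic, gave 8 and 46 UMIs, in 5 and 27 cells, and a ratio of 1.67 (0.577 to 2.97). Zc3h13, Dynll2, Chtop and Hmgn1 completed the list with ratios from 1.61 to 1.89, of which the interval of Hmgn1 included 0 (-0.586 to 4.82). Thinned to 2000 UMIs per cell, Hsd17b10 and Hmgn1 both had a ratio of -0.46. The lists gave few knockout calls inside these cells, with Ahnak at a log2 ratio of 1.34 (0.374 to 2.43) and Gpr183, a receptor for oxysterols, at 1.24 (0.311 to 2.28) on the higher side.

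Matk, a kinase that inhibits Src-family kinases, was lower in the knockout with an interval beyond 2-fold. It gave 41 UMIs in 19 wild-type cells and 20 UMIs in 16 knockout cells, 308 and 83.5 CPM, a log2 ratio of -1.89 (-2.73 to -1.08), where the other Tregs had -0.31. Evl, an actin regulator, gave 39 and 25 UMIs and a ratio of -1.49 (-2.28 to -0.730), and Aff3 gave 25 and 16 UMIs and -1.49 (-2.50 to -0.531). Evl reversed to 0.16 when Tregs had to carry a Foxp3 UMI, which left 8 wild-type and 16 knockout Il1rl1-positive cells.

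Lsm3, Mrpl21, Pdcd5, Timm8b, Elof1, Cks2 and Psmd13, which serve RNA processing, mitochondria, transcription, the cell cycle and the proteasome, had ratios from -1.96 to -1.49 on 10 to 18 wild-type and 6 to 11 knockout UMIs. The intervals of Pdcd5 included 0. Among list genes Pdcd1, the gene of the inhibitory receptor PD-1, gave 18 and 9 UMIs and -1.85 (-3.19 to -0.620), and Anxa2 gave 16 and 11 and -1.39 (-2.64 to -0.192). Hspa1a, a heat shock gene of the dissociation list that was under the inclusion level, gave 29 UMIs in wild-type against 9 in knockout cells, and its part in these differences was not tested.

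**Figure D5:**
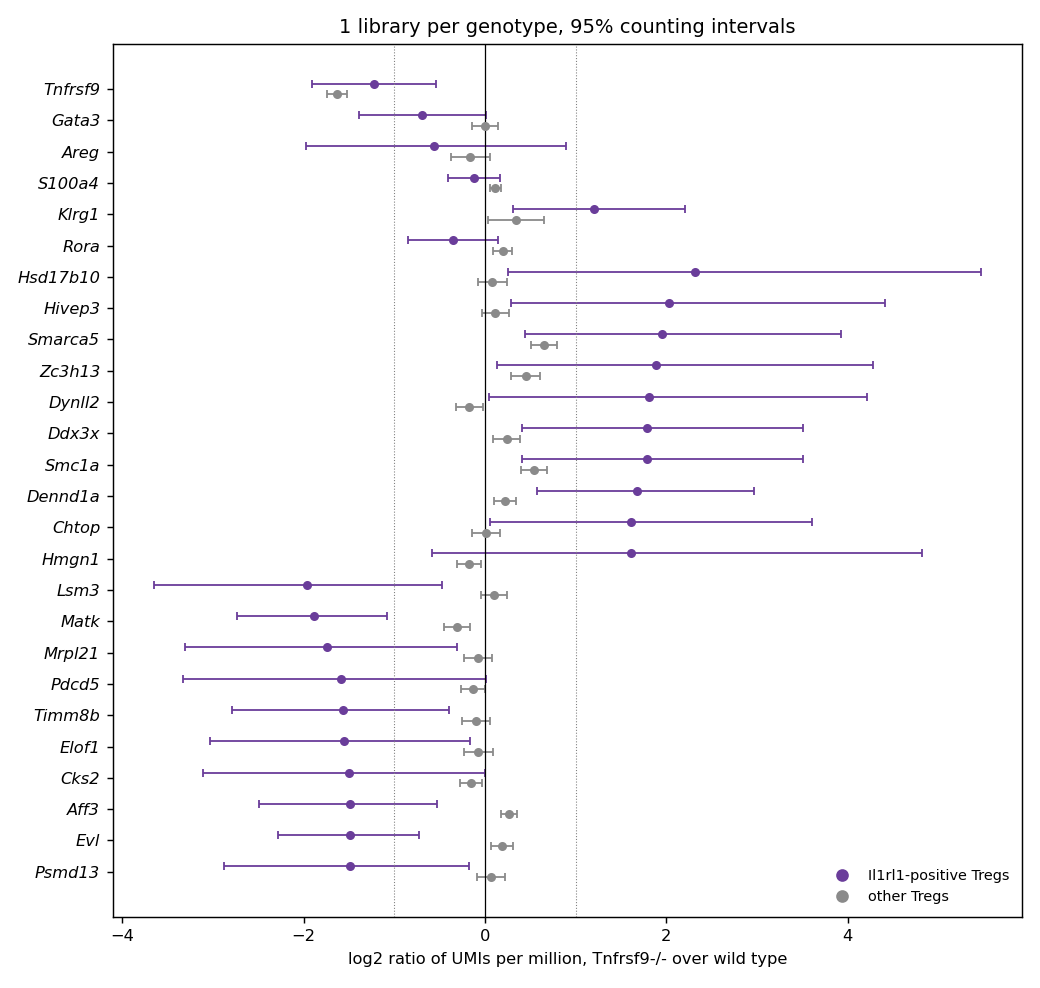
Log2 ratios of CPM in the knockout over the wild type (horizontal axis) for Tnfrsf9, 5 markers and the 20 genes with the largest differences in the Il1rl1-positive Tregs (purple), beside the other Tregs (grey), with bars for exact 95% intervals. The intervals in the Il1rl1-positive Tregs are several times wider, and the grey points of all genes but Tnfrsf9 lie between -1 and 1.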

How the data were processed

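The authors deposited counts, the number of UMIs per gene and barcode called as a cell, as sparse matrices of 27998 genes that were neither normalized nor filtered. The submitters' processing notes and file headers name Cell Ranger 7.0.0 and mm10 (GRCm38). The treatment of intronic reads is not given in the sources used here. The limits of the study were applied, which are 200 to 5000 genes per cell and no more than 20% of UMIs from mitochondrial genes. No doublet caller was run.

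The members and the gene lists were chosen with earlier results of these data known. Sums of UMIs per library and cell group were converted to CPM, with exact Poisson intervals. Ratios are on the log2 scale with exact conditional intervals. Shares have Clopper-Pearson intervals and their differences Newcombe intervals, at the 95% level. Where a gene had no UMI, a floor of 3 UMIs took its place and the ratio is a bound. No test across samples was made, with 1 library per genotype. The number of UMIs in the 87 cells limits precision, with 1 UMI worth 7.52 CPM in the wild type and 4.18 CPM in the knockout. CD8 T cells, used for background shares, had at least 2 Cd8a and Cd8b1 UMIs, at least 3 of the CD3 genes and none of Cd4, Foxp3, Il2ra and Ikzf2.

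Genes named were those at least 2-fold different with a UMI in at least 10% of the cells of the higher group and no cell holding over 25% of the UMIs, up to 14 higher and 8 lower than the other Tregs and 10 in each direction between genotypes. The cell type markers, Tnfrsf9 and examples of the lists were added, and genes of the selection were left out. Ratio and interval steps were tested on simulated counts. Alternatives changed the selection, the depth, the filters and the scaling. Shares over each limit with all cells, and sums without the highest cells, were added after seeing the data. Gene positions came from GENCODE on GRCm38, which matched 27645 identifiers, and promoter windows from RefSeq. Python 3.11.15, numpy 2.4.6, scipy 1.17.1, pandas 2.3.3, matplotlib 3.10.9, R 4.3.3, edgeR 4.0.16 (TMM factors only) and DESeq2 1.42.0 (size factors only) were used.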

Additional observations from a re-analysis of the deposited data

Results flagged for a closer look

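For 5 of the genes named by the rule, the log2 ratio of the knockout over the wild type was flagged. It had opposite signs in the Il1rl1-positive Tregs and in the other Tregs of the same libraries. In these 5 both intervals lay wholly on the side of their ratio. Other named genes also differed in sign, such as Lsm3 (-1.96 and 0.10), but with an interval that reached the other side in at least 1 group. The ratio of Aff3 was -1.49 in the Il1rl1-positive cells and 0.26 in the other Tregs. Evl had -1.49 and 0.19, and Dynll2 had 1.81 and -0.17. Nrp1 had -0.55 and 0.26, and Rgs1 had -0.26 and 0.07. The difference between the ratios was not tested for any of the 5, since each genotype has 1 library.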

How the results depend on the processing

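No paired analysis was possible because each genotype has 1 library. Leaving out a replicate was not possible for the same reason.

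Requiring 2 Il1rl1 UMIs gave shares of 0.793% (wild type) and 1.86% (knockout), 5 higher and 25 lower genes than in the other Tregs, and 44 higher and 10 lower in the knockout. Without the 3 limits these were 4.89% and 7.42%, 7 and 18, and 212 and 104. With Tregs required to carry a Foxp3 UMI they were 3.98% and 5.76%, 2 and 12, and 24 and 9. Thinning to 2000 UMIs gave shares of 2.02% and 3.17%, 1 and 11, and 38 and 21. Requiring at least 5 expected UMIs gave 21 and 112, and 327 and 204, and no filter gave 286 and 223, and 966 and 961. At least 20 expected UMIs gave 20 lower genes, and 16 and 5 between genotypes. Stricter cell filters gave 3 higher genes. Without cells above 10000 UMIs there were 3 higher and 27 lower, with equal weight per cell 2 and 24, and with TMM 2 higher and 72 lower. DESeq2 size factors gave 8 and 60. Against the Il1rl1-negative Tregs within the limits 19 were lower. All 12 genes higher than in the other Tregs stayed above 0 in both libraries under each alternative.

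Without the limits Ccl4 (wild type) had a log2 ratio of 0.29 and Dut (knockout) 0.11. Dut in the wild type had 0.071 without cells above 10000 UMIs and 0.22 against the Il1rl1-negative Tregs. Between genotypes, thinning gave -0.46 for Hsd17b10 and Hmgn1, 0.76 for Elof1 and 0.21 for Cks2. With a Foxp3 UMI required, Hmgn1 had -0.22, Evl 0.16 and Tnfrsf9 0.0029, on 8 wild-type and 16 knockout cells. The cause of these reversals was not tested. Over all alternatives, these reversals included, 475 of 586 ratios to the other Tregs and 294 of 309 between genotypes lay within the interval of the value given. These totals include the settings of at least 5, at least 20 and no expected UMIs, which changed only the genes included. Their ratios, 42 and 24 under each, were unchanged and lay within by construction. Leaving the selection genes out of the UMI total hardly moved the ratios, and all 42 and 24 stayed within.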

Other observations

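The following genes were chosen after their values were seen. Serinc3, a membrane protein of the serine incorporator family, was at 820 CPM in the wild-type and 756 CPM in the knockout Il1rl1-positive Tregs, against 429 and 384 CPM in the other Tregs and 362 and 336 CPM in the Il1rl1-negative Tregs within the limits. Socs2, a feedback inhibitor of cytokine signaling, gave 14 UMIs in 5 wild-type cells and 29 UMIs in the knockout, which is 105 and 121 CPM against 34.5 and 48.8 CPM in the other Tregs. Il1r2, the decoy receptor for interleukin 1, was at 45.1 and 12.5 CPM against 111 and 67.6 CPM in the other Tregs, from 6 and 3 UMIs. Tnfrsf25, which encodes the TL1A receptor DR3, gave 12 UMIs in wild-type against 5 in knockout cells, and its log2 ratio to the other Tregs was 2.27 and -0.15.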
